A study of Ovis aries with 9 samples.

Results

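Steroid hormones are made from cholesterol by a short chain of proteins, and 10 genes of that chain were taken by name from the gene table: STAR, CYP11A1, CYP17A1, CYP19A1, HSD17B1, HSD17B4, FDX1, FDXR, POR and SCARB1. A row with the exact name was matched for 9 of the 10 among 39157 genes, and CYP19A1, the aromatase that makes estrogens, was not analysed here. The libraries came from ovine granulosa cells (GCs), the cells that surround the oocyte in the follicle, of thin-tailed Han sheep. GCs were pooled from the follicles of many ovaries, kept for 8 h without glucose and serum, and then cultured for 24 h in 0 mM (CON), 8.4 mM (LOW) or 33.6 mM glucose (HIGH), with 3 libraries per group. All groups therefore shared the period without glucose, and CON continued it. Because the cells came from a common pool, the p-values measure the spread between cultures or libraries and not between ewes. The question addressed is whether the amount of glucose offered to GCs goes with a different level of steroid synthesis transcripts.

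In cells that make steroids, cholesterol enters through lipoprotein receptors such as SCARB1, and STAR moves it to the inner mitochondrial membrane. There CYP11A1 cuts its side chain to give pregnenolone, with electrons passed on by FDXR and then FDX1. In the endoplasmic reticulum, CYP17A1 leads towards androgens and CYP19A1 from androgens to estrogens, both with electrons from POR. Enzymes of the 17-beta-hydroxysteroid dehydrogenase family, such as HSD17B1, interconvert estrone and estradiol. HSD17B4 is a peroxisomal enzyme that can oxidise estradiol and also takes part in fatty acid breakdown.

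Expression was given as FPKM, the fragments of a gene divided by its transcript length and the depth of its library, so that levels can be compared between genes per unit length. An FPKM of 1 stood for 48.0 to 71.3 fragments per kilobase, depending on the library. Of all FPKM, 30.3% to 72.1% fell on genes for small RNAs, and the share was 52.1% to 68.6% among CON libraries, 67.0% to 72.1% among LOW libraries and 30.3% to 68.2% among HIGH libraries. The libraries also differed in the balance of short and long genes. A short-gene index was the median log2 deviation of 3497 genes spanning under 10000 bases minus that of 3235 genes spanning over 50000 bases. It was -0.30, 0.07 and 0.59 in CON, -0.05, 0.13 and 0.06 in LOW and -0.39, -0.18 and 0.09 in HIGH. The third CON library thus stood at the top of this scale, and the first CON and first HIGH libraries at the bottom.

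The cell type label was checked against marker genes. FSHR, the receptor for follicle-stimulating hormone, was at 0.218 to 0.564 FPKM, and INHA, the inhibin alpha subunit, at 8.57 to 19.7 FPKM. Of 12 granulosa markers, 9 had a row, and AMH and FOXL2 were not analysed here. All 9 stromal markers were above 1 FPKM, and their summed level was 5316 to 6730 for CON, 5434 to 5746 for LOW and 4693 to 5858 for HIGH. LUM, an extracellular matrix proteoglycan, alone was at 1815 to 2239 FPKM. The endothelial marker CDH5 and the oocyte marker BMP15 were listed at 0 in all 9 libraries, and the theca marker INSL3 reached at most 0.0843 FPKM. Summed levels in CON, LOW and HIGH were 59.6 to 70.8, 48.6 to 60.2 and 45.5 to 64.3 for 8 granulosa markers, 1.67 to 3.02, 1.99 to 2.29 and 1.61 to 3.13 for 4 theca markers, and 194 to 271, 185 to 200 and 134 to 186 for 3 luteal markers. They were 0.397 to 0.819, 0.521 to 0.629 and 0.428 to 0.857 for 5 endothelial markers, 17.7 to 20.6, 15.7 to 17.5 and 14.3 to 18.0 for 5 immune markers, 0.580 to 0.712, 0.533 to 0.863 and 0.539 to 0.851 for 3 oocyte markers, and 11.2 to 17.9, 11.1 to 13.9 and 5.59 to 10.2 for 2 epithelial markers. In bulk RNA, fewer cells of a type and less RNA per cell cannot be told apart.

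The members spanned a wide range of levels. CYP11A1 was by far the highest, with a mean of 162 FPKM over the 9 libraries, rank 184 of 14158 named genes. POR, HSD17B4, FDX1 and SCARB1 followed with means of 35.5, 32.6, 22.0 and 20.6 FPKM. FDXR stood at 8.82 FPKM and STAR at 6.02 FPKM. HSD17B1 and CYP17A1 were near the lower limit of measurement with means of 0.387 and 0.252 FPKM, which corresponded to 6.40 to 35.9 and 6.27 to 23.8 fragments per kilobase. In that order, POR overlapped HSD17B4, FDX1 overlapped SCARB1, FDXR overlapped STAR and HSD17B1 overlapped CYP17A1 over the libraries. SCARB1 also reached into the range of HSD17B4.

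**Figure D1:**
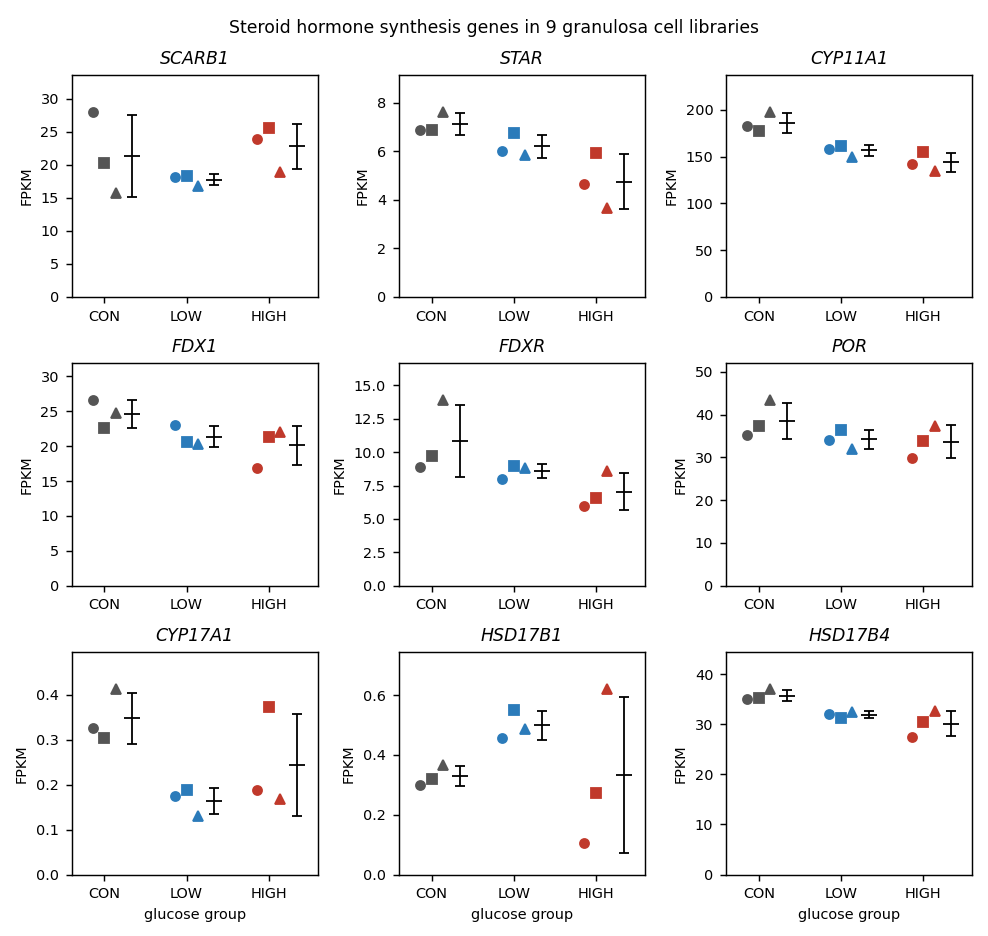
FPKM as deposited (vertical axes, from 0) of 9 steroid synthesis genes in CON, LOW and HIGH libraries. Circles, squares and triangles are libraries 1, 2 and 3 of each group, and the black marks beside them are the group mean and SD (n = 3). CYP11A1 lay at 177 to 198 FPKM in CON and 135 to 155 FPKM in HIGH, while FDXR, SCARB1 and HSD17B1 spread widely within a group.

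No member met the call of adjusted p under 0.05 with an absolute log2 fold change above 1 in any of the 3 comparisons (limma, Benjamini-Hochberg adjustment over 24365 genes). The same call was met by 2 of all genes, or 0.00821%, in LOW versus CON, by 0.00821% in HIGH versus CON and by 0.00821% in HIGH versus LOW. At an unadjusted p under 0.05 in limma, 0 of 9 members passed in LOW versus CON, beside 0.903% of all genes lower and 0.928% higher. In HIGH versus CON, 3 of 9 members were lower and 0 higher, beside 2.67% of all genes lower and 4.1% higher. In HIGH versus LOW, 1 of 9 was lower and 0 higher, beside 2.46% of all genes lower and 5.21% higher. edgeR and DESeq2 on the estimated counts also called 0 members in each comparison, with 1, 2 and 1 members (edgeR) and 1, 4 and 2 members (DESeq2) at an unadjusted p under 0.05 in LOW versus CON, HIGH versus CON and HIGH versus LOW. The same p was reached by 2.09%, 5.49% and 6.72% of all genes in edgeR and by 4.52%, 10.6% and 11.6% in DESeq2.

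STAR, the cholesterol carrier, was measured at 6.88, 6.86 and 7.63 FPKM in CON, at 6.01, 6.74 and 5.84 FPKM in LOW and at 4.65, 5.91 and 3.65 FPKM in HIGH. All HIGH libraries lay below all CON libraries, as deposited and after scaling. As deposited, the top HIGH library lay above the bottom LOW library, but after scaling all HIGH libraries lay below all LOW libraries. The gene lies on chromosome 26 from 31957713 to 31966284 in the coordinates of the files, whose genome build is not given in the sources used here. The group means were 7.12 ± 0.440 (SD, n = 3), 6.20 ± 0.477 and 4.74 ± 1.13 FPKM. The log2 fold change of HIGH versus CON was -0.56 with a standard error (SE) of 0.17, or 0.678 times the CON level with a 95% interval of 0.522 to 0.882 (limma adjusted p = 0.651). For HIGH versus LOW it was -0.46 (SE 0.17, limma adjusted p = 0.621), and for LOW versus CON -0.10 (SE 0.17, limma adjusted p = 1.00). When each library was left out in turn, HIGH versus CON ranged from -0.70 to -0.43, with an unadjusted limma p under 0.05 in 9 of 9 cases. HIGH versus LOW kept such a p in 7 of 9 cases, and reached 0.0757 without the second LOW library and 0.0759 without the third HIGH library.

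CYP11A1, which catalyses the first enzymatic step, was measured at 182, 177 and 198 FPKM in CON, at 159, 162 and 150 FPKM in LOW and at 142, 155 and 135 FPKM in HIGH. As deposited, CON did not overlap the other groups, and LOW and HIGH overlapped. After scaling, CON and LOW overlapped and HIGH lay below all LOW libraries. The gene lies on chromosome 18 from 33216420 to 33230614. The group means were 186 ± 10.9, 157 ± 6.14 and 144 ± 10.0 FPKM (SD, n = 3). After scaling of the libraries to a common median, the log2 fold change of HIGH versus CON was -0.33 (SE 0.12, limma adjusted p = 0.651), or 0.797 times the CON level with a 95% interval of 0.659 to 0.965. LOW versus CON gave -0.14 (SE 0.12) and HIGH versus LOW -0.19 (SE 0.12, limma adjusted p = 0.649). The unadjusted limma p of HIGH versus CON was under 0.05 in 5 of 9 fits that left out 1 library, and lay between 0.0507 and 0.0537 without the second or the third CON library or the first or the second HIGH library. In DESeq2 on the estimated counts, HIGH versus CON had an adjusted p of 0.0187 for CYP11A1 and 0.0341 for STAR, where 1.85% of all genes tested were under 0.05, with log2 fold changes of -0.39 and -0.62 that did not reach the size needed for a call. In edgeR the adjusted p was 0.825 for both. The estimated counts grow with genomic span, and their total exceeded the clean reads given in the paper for every library. The DESeq2 adjusted p may therefore be too small. Of all genes, DESeq2 called 302 in HIGH versus CON, limma 2 and edgeR 0.

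FDXR, the reductase that feeds electrons to FDX1, was measured at 8.90, 9.69 and 13.9 FPKM in CON, at 8.00, 8.94 and 8.84 FPKM in LOW and at 5.96, 6.55 and 8.63 FPKM in HIGH. The HIGH and CON libraries did not overlap as deposited, but they did after scaling. The log2 fold change of HIGH versus CON was -0.56 (SE 0.23, limma adjusted p = 0.651). Without the third CON library it was -0.33, and over all fits that left out 1 library it ranged from -0.75 to -0.33. The other 2 comparisons gave -0.20 (SE 0.23) for LOW versus CON and -0.36 (SE 0.23) for HIGH versus LOW.

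FDX1, the ferredoxin that hands electrons to CYP11A1, was measured at 26.6, 22.6 and 24.8 FPKM in CON, at 23.1, 20.6 and 20.4 FPKM in LOW and at 16.8, 21.4 and 22.1 FPKM in HIGH. Only the second CON library, at 22.6 FPKM, fell within the range of the LOW group, and all HIGH libraries were below all CON libraries as deposited, but not after scaling. The log2 fold change of HIGH versus CON was -0.26 (SE 0.14, limma adjusted p = 0.651). It was -0.36 without the third HIGH library and -0.13 without the first HIGH library. The gene row summed several transcripts. Its most abundant transcript made up 75.3% to 89.5% of the gene's FPKM, and FDX1-OT1 10.5% to 22.9%. Their log2 fold changes of HIGH versus CON were -0.29 (SE 0.16) and 0.05 (SE 0.22).

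SCARB1, a receptor for high-density lipoprotein, was measured at 28.1, 20.2 and 15.8 FPKM in CON, at 18.2, 18.3 and 16.8 FPKM in LOW and at 23.9, 25.6 and 18.9 FPKM in HIGH. It was the single member with a positive value in HIGH versus CON, at 0.17 (SE 0.17, limma adjusted p = 0.687), and the CON libraries alone covered the whole range of the gene. HIGH libraries lay above all LOW libraries, with a log2 fold change of 0.29 (SE 0.17, limma adjusted p = 0.636). Its most abundant transcript held 95.9% to 98.9% of the gene's FPKM. Without the first CON library, LOW versus CON changed from -0.12 to 0.04 and HIGH versus CON from 0.17 to 0.33. Without the third CON library, HIGH versus CON was 0.0059.

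POR, the electron donor of the microsomal cytochromes P450, was measured at 35.1, 37.3 and 43.3 FPKM in CON, at 34.1, 36.4 and 32.0 FPKM in LOW and at 29.8, 33.8 and 37.4 FPKM in HIGH. The groups overlapped in all comparisons. Its log2 fold changes were -0.07 (SE 0.16), -0.15 (SE 0.16) and -0.08 (SE 0.16) for LOW versus CON, HIGH versus CON and HIGH versus LOW. The 95% interval of HIGH versus CON ran from 0.707 to 1.15 times the CON level. The antisense transcript POR-AS1 was listed at 0 in the CON libraries, at 0.341, 0.303 and 0 FPKM in LOW and at 0, 0.192 and 1.25 FPKM in HIGH. It made up at most 3.33% of the gene's FPKM.

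HSD17B4 was measured at 35.0, 35.2 and 37.0 FPKM in CON, at 32.1, 31.2 and 32.5 FPKM in LOW and at 27.5, 30.4 and 32.6 FPKM in HIGH. As deposited, CON was above every library of the other groups, but after scaling the groups overlapped. The coefficient of variation within CON and LOW was 3.17% and 2.05%, the lowest of the members, and 8.54% in HIGH. The log2 fold change of HIGH versus CON was -0.20 (SE 0.12, limma adjusted p = 0.651) after scaling, and -0.25 in FPKM as deposited. It ranged from -0.30 to -0.13 when 1 library was left out.

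The last pair of enzymes was measured at low levels, where a few fragments move the value. CYP17A1 was at 0.325, 0.305 and 0.412 FPKM in CON, at 0.174, 0.187 and 0.131 FPKM in LOW and at 0.188, 0.374 and 0.169 FPKM in HIGH. The gene was also on the list of theca markers. LOW lay below CON without overlap, with a log2 fold change of -0.69 (SE 0.32, limma adjusted p = 1.00). DESeq2 gave -0.997 (DESeq2 adjusted p = 0.418). HSD17B1 was at 0.3002, 0.320 and 0.367 FPKM in CON, at 0.459, 0.552 and 0.487 FPKM in LOW and at 0.107, 0.272 and 0.620 FPKM in HIGH. LOW lay above CON without overlap, with a log2 fold change of 0.56 (SE 0.43, limma adjusted p = 1.00), while the HIGH libraries held both the lowest and the highest value of the gene. Without the third HIGH library, HIGH versus LOW moved from -0.70 to -1.19, and without the first HIGH library to -0.26.

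**Figure D2:**
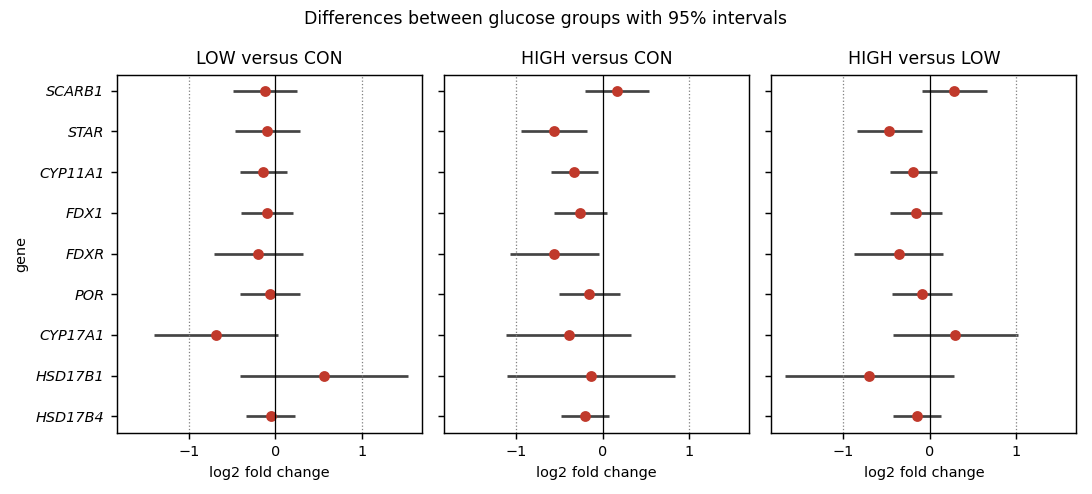
Log2 fold change (horizontal axes) of 9 genes in LOW versus CON, HIGH versus CON and HIGH versus LOW. Points are limma estimates, lines are 95% intervals, and dotted lines mark the size of 1 needed for a call. In HIGH versus CON the intervals of STAR, CYP11A1 and FDXR lay below 0, and 8 of 9 points were negative.

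As a group, 8 of 9 members had a negative log2 fold change in HIGH versus CON, beside 43.7% of all genes, with a median of -0.26 beside 0.07 over all genes tested. In LOW versus CON, 8 of 9 were negative (48.6% of all genes) with a median of -0.10 beside 0.01, and in HIGH versus LOW 7 of 9 (44.5% of all genes) with a median of -0.15 beside 0.06. The median over all genes depended on low-level genes. With FPKM of at least 1 in 3 libraries required, it was -0.01 in HIGH versus CON and -0.03 in HIGH versus LOW. For the 7 members that passed this filter, the medians were -0.26 and -0.15. After scaling, the groups did not overlap for 2 members that were lower in HIGH than in CON (4.19% of all genes), STAR and CYP11A1, and for 0 that were higher (5.2% of all genes). In HIGH versus LOW, these 2 members were again lower without overlap (7.77% of all genes), and SCARB1 was higher (11.2% of all genes). In LOW versus CON, CYP17A1 was lower (3.06% of all genes) and HSD17B1 higher (3.0% of all genes). The HIGH versus CON and HIGH versus LOW comparisons share the HIGH libraries, and both comparisons with CON share its libraries.

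An exact permutation test over the 280 ways to divide the 9 libraries into 3 groups asked whether the range of the group means was larger than other divisions gave, where the smallest possible p is 0.00357. For CYP11A1 the range was 0.33 on the log2 scale and was matched or exceeded by 2 of 280 divisions, including its own (exact p = 0.00714). For STAR it was 0.56, with 9 of 280 (exact p = 0.0321). For the other 7 members the exact p lay between 0.0679 for CYP17A1 and 0.611 for POR. These exact p were not adjusted for the number of members tested. With 1 library left out, the exact permutation p ranged from 0.00357 to 0.0607 for CYP11A1 and from 0.0214 to 0.111 for STAR. It was above 0.05 for both genes without any of the LOW libraries, and also for STAR without the second or the third CON library. Without the third HIGH library, 6 members had an exact p under 0.05, among them HSD17B1, HSD17B4, FDX1 and FDXR. On FPKM as deposited, without scaling, 4 members had one (STAR and CYP11A1 at 0.00714, HSD17B4 at 0.0143 and FDXR at 0.0214).

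The levels of several members followed the short-gene index of the library. POR, HSD17B4, FDX1 and SCARB1 span 52794, 102071, 59607 and 96576 bases and so were among the long genes of the index. STAR spans 8572 bases and was among the short ones. POR and HSD17B4 thus rose with the index although they are long genes. Over the 9 libraries, Pearson's r between the index and the log2 level was 0.96 for POR (exact permutation p = 3.03e-05, adjusted over 9 relations 0.000273), 0.93 for FDXR (exact p = 0.00142, adjusted 0.00397), 0.89 for HSD17B4 (exact p = 0.00176, adjusted 0.00397) and -0.88 for SCARB1 (exact p = 0.00170, adjusted 0.00397). Spearman's rho was 0.97, 0.85, 0.82 and -0.70, with adjusted exact p of 0.00149, 0.0273, 0.0323 and 0.0779. An r of 0.8 or more was also found for 14.4% of all genes and an r of -0.8 or less for 21.6%. Without the 2 libraries farthest from the median index, r was 0.89, 0.73, 0.72 and -0.84 for the same 4 genes, and within groups it was 0.96, 0.96, 0.88 and -0.92.

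For CYP11A1, r was 0.75 (exact p = 0.0231, adjusted 0.0417) and 0.84 within groups, but 0.11 without the 2 farthest libraries, so the relation over all libraries rested on those. Its rho was 0.60 (adjusted exact p = 0.124). For STAR, r was 0.49 (exact p = 0.182) and -0.07 without them. The third HIGH library had the lowest STAR level at an index of 0.09, in the upper part of the scale. HSD17B1, FDX1 and CYP17A1 had r of 0.59, 0.65 and 0.30, with adjusted exact p of 0.127, 0.111 and 0.447. With the index as a covariate, a fit chosen after the data were seen, HIGH versus CON was -0.51 for STAR (SE 0.16), -0.25 for CYP11A1 (SE 0.06) and -0.28 for FDXR (SE 0.09). All 3 limma adjusted p were above 0.05, at 0.416, 0.362 and 0.436. POR was then at 0.02 and SCARB1 at -0.01.

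**Figure D3:**
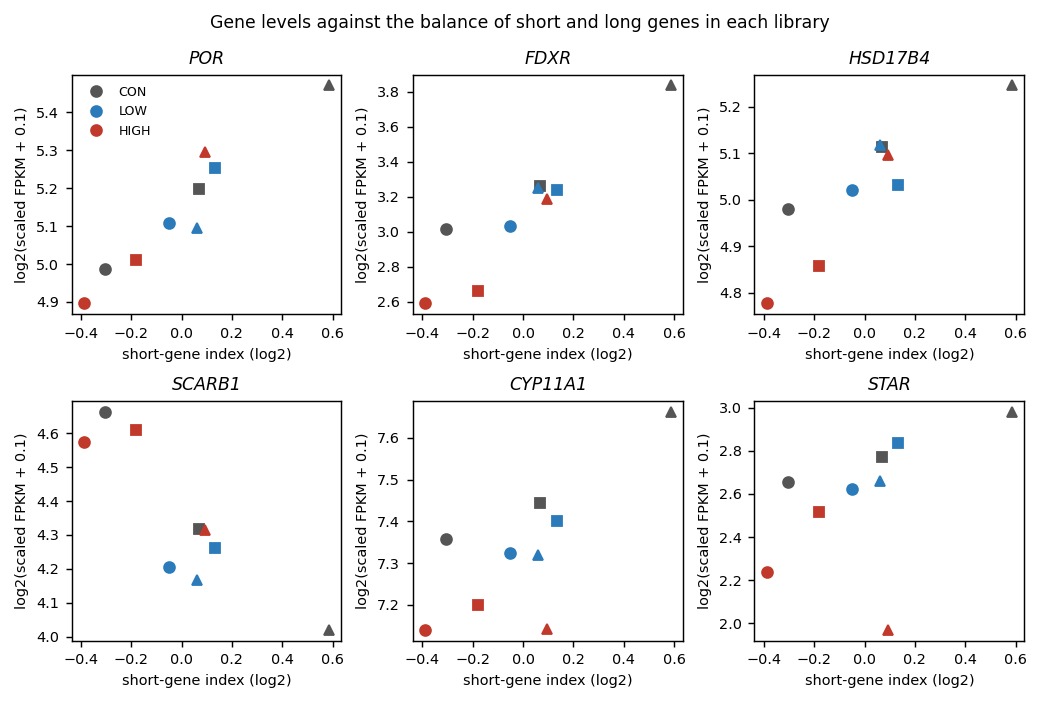
Log2 of scaled FPKM plus 0.1 (vertical axes) against the short-gene index of each library (horizontal axes, log2) for 6 genes. Colours mark the CON, LOW and HIGH groups, and circles, squares and triangles libraries 1, 2 and 3. POR and FDXR rose with the index (r of 0.96 and 0.93) and SCARB1 fell (r of -0.88), while the third HIGH library lay low for STAR and CYP11A1.

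Between members, 36 pairs were compared over the 9 libraries, and 9 pairs had an adjusted exact permutation p under 0.05 for Pearson's r, 6 of them positive. The closest pair was HSD17B4 and FDXR, with r of 0.96 and rho of 0.97 (exact p = 7.16e-05, adjusted 0.00258). FDXR and POR had r of 0.90 and rho of 0.78 (exact p = 0.00112, adjusted 0.0175). These genes also shared the relation to the short-gene index given above, and its part in their correlation was not tested. STAR and CYP11A1, consecutive steps at the mitochondrion, had r of 0.88 and rho of 0.92 (exact p = 0.00146 and 0.00131, adjusted 0.0175 and 0.0236). Their r was 0.95 once the 2 libraries with the most extreme STAR levels were left out and 0.69 within groups.

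The 3 negative pairs all held SCARB1, with HSD17B4 (r of -0.83), FDXR (-0.82) and POR (-0.80). CYP11A1 and its electron donors gave r of 0.84 with FDXR (adjusted exact p = 0.0293, but 0.46 without 2 libraries) and 0.65 with FDX1 (adjusted exact p = 0.137). By Spearman's rho, 2 pairs had an adjusted exact p under 0.05, HSD17B4 with FDXR and STAR with CYP11A1. The number of pairs depended on single libraries: it was 0 without the first HIGH library, 2 without the third CON library, 3 without the second HIGH library, 4 without the second LOW library and 16 without the third HIGH library. It was 4 in FPKM as deposited.

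**Figure D4:**
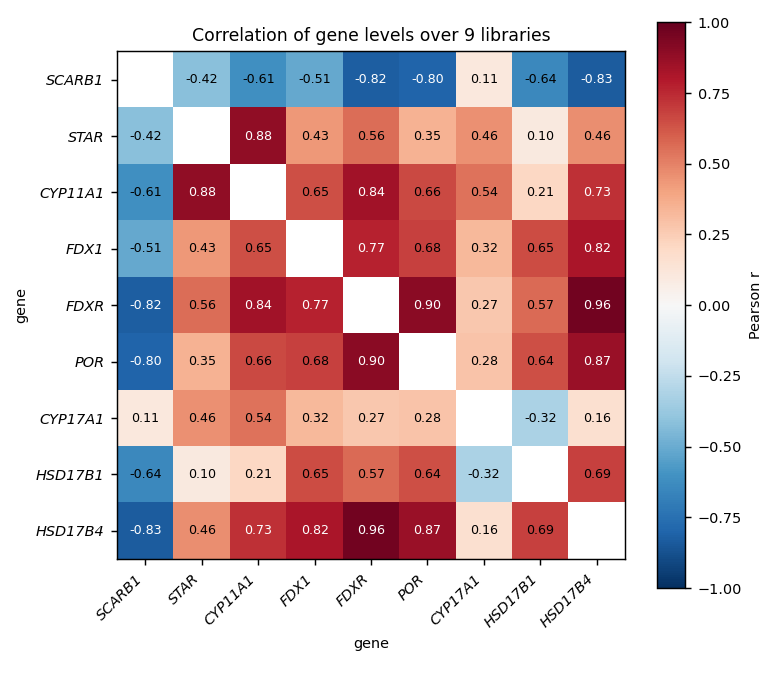
Pearson's r between the log2 levels of each pair of 9 genes over 9 libraries, from blue (-1) to red (1). The block of FDXR, POR and HSD17B4 holds r of 0.87 to 0.96, STAR with CYP11A1 holds 0.88, and the row of SCARB1 is negative for all genes but CYP17A1.

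The balance of the chain was also expressed as ratios of FPKM within a library, which need no scaling. CYP11A1 was 26.1 ± 0.342, 25.4 ± 1.22 and 31.2 ± 5.45 times STAR in CON, LOW and HIGH (SD, n = 3), and 37.0 times in the third HIGH library. CYP11A1 was 6.12 to 8.42 times FDX1 over all libraries, and FDX1 was 1.79 to 3.27 times FDXR. POR was 90.5 to 245 times CYP17A1, one of the P450 enzymes that it serves. CYP11A1 was 541 ± 53.4 times CYP17A1 in CON, 974 ± 152 times in LOW and 655 ± 210 times in HIGH, where the libraries ran from 414 to 799 and spanned the CON values.

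The genes whose pattern over the 9 libraries was most like that of each member were found among 9108 genes with a symbol and a mean of at least 1 FPKM, by Pearson's r as a description. For STAR these were KHK (0.97) and APOD (0.95), and for CYP11A1 SERPINA14 (0.98) and CTH (0.96). FDXR was nearest to TYSND1 and MMUT (0.99 each), POR to CITED1 (1.00) and CRKL (0.99), and HSD17B4 to MRPL48 and EIF2D (0.99 each). SCARB1 was nearest to ARHGAP1 (0.99) and FMNL2 (0.98), FDX1 to PLEK2 and ANKRD55 (0.94 and 0.93), HSD17B1 to KPNA2 and UGGT2 (0.97 and 0.96) and CYP17A1 to POGK (0.94) and MTERF4 (0.90).

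Other genes of steroid metabolism were read from a wider list of 49 genes, of which 34 had a row and 25 were tested, and from 30 genes of cholesterol supply, of which 25 were tested. None was called in any comparison by limma or edgeR. DESeq2 on the estimated counts called 1 steroid gene, HSD17B2, in HIGH versus CON and in HIGH versus LOW. It was listed at 0.0120, 0.0354 and 0 FPKM in CON, at 0, 0.167 and 0 FPKM in LOW and at 0 in HIGH. Only the second LOW library was thus above 0 in HIGH versus LOW, and limma did not test the gene because of its low level. In HIGH versus CON, 21 of 25 steroid genes and 16 of 25 cholesterol genes were below 0, with medians of -0.20 and -0.07 beside 0.07 over all genes. With FPKM of at least 1 in 3 libraries required, the median over all genes was -0.01. At an unadjusted p under 0.05, 3 steroid genes were lower and 2 higher, and 2 cholesterol genes were lower and 1 higher, beside 2.67% of all genes lower and 4.1% higher. In HIGH versus LOW, 2 steroid genes were lower and 2 higher, and 1 cholesterol gene was higher, beside 2.46% of all genes lower and 5.21% higher. In LOW versus CON, 0 steroid genes passed. H6PD, which supplies NADPH inside the endoplasmic reticulum, was at 10.7, 8.38 and 7.11 FPKM in CON, at 7.64, 7.56 and 6.55 FPKM in LOW and at 15.3, 13.5 and 8.99 FPKM in HIGH. Its log2 fold change was 0.55 in HIGH versus CON (SE 0.19, limma adjusted p = 0.651) and 0.70 in HIGH versus LOW (SE 0.19). NPC1, which releases cholesterol from lysosomes, gave 0.83 in HIGH versus LOW (SE 0.23), and PGRMC2, a progesterone receptor membrane component, 0.84 in HIGH versus CON (SE 0.26, limma adjusted p = 0.651).

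In the other direction, STARD5, a cholesterol-binding relative of STAR, gave -0.52 in HIGH versus CON (SE 0.18, limma adjusted p = 0.651) and HSD17B8, another 17-beta-hydroxysteroid dehydrogenase, -0.59 (SE 0.21) and -0.56 in HIGH versus LOW (SE 0.21, limma adjusted p = 0.621). CYP7B1 and VLDLR gave 0.27 and 0.33 in LOW versus CON, with SE of 0.19 and 0.23. HSD3B1, which turns pregnenolone into progesterone, had means of 3.65 ± 0.918, 3.08 ± 0.351 and 3.11 ± 0.640 FPKM in CON, LOW and HIGH. SOAT1, which esterifies cholesterol for storage, gave -0.05 in HIGH versus CON (SE 0.11). TSPO, a protein of the outer mitochondrial membrane, and CYB5A, a partner of CYP17A1, gave -0.52 (SE 0.30) and -0.46 (SE 0.22). Among the regulators, 24 of 31 were tested and 0 called by limma or edgeR, while DESeq2 called NR0B1, listed at 0 to 0.0673 FPKM, in LOW versus CON. At an unadjusted p under 0.05 (limma), 3 were higher in HIGH than in CON and 5 higher in HIGH than in LOW, beside 4.1% and 5.21% of all genes. The nuclear receptors NR5A1 and NR5A2, which activate steroidogenic genes, gave -0.29 (SE 0.17) and -0.05 (SE 0.12) in HIGH versus CON. FSHR gave -0.14 (SE 0.32), and LHCGR was not analysed here.

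Markers of granulosa and other cells were read beside these results. Of 9 stromal markers, 3 were higher in HIGH than in CON and 3 higher than in LOW at an unadjusted p under 0.05 (limma), 0 were called by limma or edgeR and 1 by DESeq2 (COL1A1, in both), and the median log2 fold change was 0.31 and 0.34. Other stromal markers went the other way: 3 of the 9 were below 0 in HIGH versus CON and 4 in HIGH versus LOW, with 0 lower at that p. Of all genes, 43.7% and 44.5% were below 0. COL1A1, a chain of type I collagen, was at 35.1, 28.6 and 15.8 FPKM in CON, at 27.5, 22.5 and 22.9 FPKM in LOW and at 127, 76.5 and 37.1 FPKM in HIGH. Its log2 fold change of HIGH versus CON was 1.54 (SE 0.39, limma adjusted p = 0.651). At the same p, 1 of 9 granulosa markers was lower in HIGH than in CON (INHA, at -0.55) and 1 was higher in HIGH than in LOW (GATA4, at 0.71). Of 4 immune markers, 1 was lower in HIGH than in CON (CD68, at -0.52, SE 0.16). Of 2 epithelial markers, 1 was lower in HIGH than in CON (KRT8, at -0.79, SE 0.27), and both were lower in HIGH than in LOW without overlap (KRT8 at -0.75 and EPCAM at -1.73, the latter listed at 0 to 0.581 FPKM). The limma adjusted p was above 0.05 for all of these. Shares of all genes at this p were 2.67% lower and 4.1% higher in HIGH versus CON, and 2.46% and 5.21% in HIGH versus LOW. Without overlap, 7.77% of all genes were lower in HIGH than in LOW. The part of cell composition in the levels of STAR and CYP11A1 was not tested.

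At the transcript level, 15 transcripts belonged to the members and 13 were tested, with 0 called in the 3 comparisons (limma, adjusted over 39471 transcripts), beside 0.0279%, 0.0279% and 0.0355% of all transcripts. At an unadjusted p under 0.05, 0, 3 and 1 passed in LOW versus CON, HIGH versus CON and HIGH versus LOW, beside 2.71%, 6.09% and 6.92% of all transcripts. For STAR, CYP11A1, CYP17A1, HSD17B1, HSD17B4 and FDXR the gene held 1 transcript, so the deposited gene and transcript values were the same. Transcripts were scaled apart from genes, so the fits differed. STAR in HIGH versus CON was -0.54 for the transcript and -0.56 for the gene.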

How the data were processed

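RNA of 9 GC libraries was depleted of ribosomal RNA and sequenced, and the study's methods name Hisat2 and Stringtie. The submitters' processing notes also list TopHat2, STAR 2.5.1b and HTSeq 0.6.0. The genome build is not given in the sources used here. The authors deposited FPKM per gene and transcript, and a gene table of estimated counts. For genes with 1 transcript, those counts equalled FPKM times genomic span times a library factor (within 3% for 100% of such genes). They are not read counts, so FPKM was tested and the counts, cut to whole numbers for DESeq2, served as an alternative. Their totals exceeded the clean reads given in the paper for every library, so DESeq2 p-values from them may be too small. Transcripts of genes without a symbol, which were on another scale, were rescaled.

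Each library was scaled to a common median over 11689 genes with FPKM of at least 1 in all libraries. Genes spanning 300 bases or more with FPKM of at least 0.1 in 3 libraries were tested as log2(FPKM + 0.1) with limma 3.58.1 (R 4.3.3; trend, all groups in 1 model, Benjamini-Hochberg), which understates changes of low genes. edgeR 4.0.16 and DESeq2 1.42.0 were alternatives. Correlations, with 9 values, were tested by exact two-sided permutation. The scripts were tested on simulated data. The members and lists were chosen with earlier results of these data known. Named genes are the members, the 3 smallest p of the wider lists in each comparison, and fixed genes (HSD3B1, TSPO, CYB5A, SOAT1, NR5A1, NR5A2, FSHR, LHCGR). A gene that the rule also names is not reported here. Marker genes, the 2 genes nearest to each member and genes that DESeq2 called are named too; HSD17B2, NR0B1, GATA4, CD68, KRT8, EPCAM and COL1A1 were chosen after their values were seen.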

Additional observations from a re-analysis of the deposited data

How the results depend on the processing

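The count of members called was 0 under every alternative run in all 3 comparisons. Of 561 member values under 21 alternatives, 546 kept their direction and 15 changed it, and 18 of 27 member comparisons never changed direction. The cause of the changes was not tested. With edgeR, DESeq2 and edgeR without a filter, FDX1 in LOW versus CON was 0.057, 0.036 and 0.056, and HSD17B1 in HIGH versus CON 0.039, 0.024 and 0.041. With the short-gene index as covariate (added after seeing the data), HSD17B1, POR and SCARB1 in HIGH versus CON were 0.20, 0.018 and -0.013, and POR in HIGH versus LOW 0.041. With 1 library left out, HSD17B4, FDXR, POR and SCARB1 in LOW versus CON ranged from -0.12 to 0.012, -0.38 to 0.034, -0.18 to 0.062 and -0.28 to 0.042, and HSD17B1 in HIGH versus CON from -0.62 to 0.31.

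Counts of all genes called (2 in each comparison) moved for LOW versus CON, HIGH versus CON and HIGH versus LOW to 296, 302 and 509 with DESeq2, and to 4, 6 and 4 with the covariate. With edgeR, with or without a filter, they were 0 in HIGH versus CON and 0 in HIGH versus LOW. FPKM of at least 1 gave 1 in LOW versus CON and 1 in HIGH versus LOW, fitting only the 2 groups compared 1 in HIGH versus CON and 6 in HIGH versus LOW, and a pseudocount of 0.01 gave 4 in HIGH versus LOW. Leaving out 1 library gave 1 to 5, 2 to 8 and 1 to 5. In the exact test over 3 groups, the unadjusted p was under 0.05 for 2 members. This count was 4 without scaling and 0 to 6 with 1 library left out. The pairs were 9, 4 without scaling and 0 to 16 with 1 library left out.

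The replicate numbers are shared between groups, and the sample labels do not say whether same-numbered cultures were set up together. In their deviations, same-numbered libraries correlated between -0.03 and 0.42 and differently numbered ones between -0.44 and 0.15. The highest values were CON with HIGH for the first and for the third libraries, at 0.42 each. Not every library correlated best with its own number. With the replicate block, 4, 4 and 2 genes were called, no member was called, and no member transcript was called. Genes at an unadjusted p under 0.05 (limma) rose from 446, 1649 and 1868 to 633, 3669 and 3907 in LOW versus CON, HIGH versus CON and HIGH versus LOW. Members at that p were 0, 3 and 2 with the block, beside 0, 3 and 1 without it. Depth limits CYP17A1 and HSD17B1 most.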
